A study of Homo sapiens with 4 samples.

Results

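Neuropeptides are short signalling peptides that neurons and endocrine cells store in dense-core granules and release beside their classical transmitters. The genes described here encode the precursors of 8 of them: NPY, GAL, VIP, CARTPT, TAC1, SST, ADCYAP1 and PENK. They were taken by gene symbol from the platform annotation, with every probe set that annotation assigns to them alone, which gave 11 probe sets (a probe set is a group of oligonucleotides that together report 1 transcript) for 8 of the 19775 genes measured. GAL, ADCYAP1 and PENK had 2 probe sets each and the remaining 5 genes had 1.

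The data come from SH-SY5Y, a human neuroblastoma line of sympathetic origin, on oligonucleotide arrays with 1 array per sample. There were 2 arrays of TSPAN8 knockdown, in which small interfering RNA against TSPAN8, the gene of a tetraspanin of the cell surface, was supplied with a self-delivering system (Accell), and 2 arrays of transfection control. Both groups were incubated for 72 h in medium with serum, and 100 ng of total RNA was labelled with biotin. The labels do not say what else the control cells received, nor whether the samples of 1 group were grown apart, so the p-values reflect variation among 4 arrays that could be purely technical.

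The values are log2 expression after RMA, a procedure that corrects background, equalises the arrays and summarises the probes of a set. The targeted gene, TSPAN8, stood at 6.25 and 6.35 on the knockdown arrays, against 7.52 and 7.62 on the control arrays, a log2 difference of -1.27 ± 0.062 (SE; limma, adjusted p = 0.0026). No other probe set of the 54613 tested had an adjusted p under 0.05. Markers of the noradrenergic neuroblast were mostly present: 10 of 13 measured were above the background line defined below on both control arrays, among them GATA3, ISL1, PHOX2A and DBH. The exceptions were TH, the enzyme of the first step of catecholamine synthesis, HAND2 and INSM1. TH had 6.08 ± 0.061 in knockdown and 5.96 ± 0.053 in control cells (SD, n = 2 each), under the median of all probe sets (6.58 on each control array). HAND2, at 7.68 and 7.64 on the control arrays, and INSM1, at 7.21 and 7.28, were above that median. Of the 13, 9 were lower in knockdown cells, beside 10988 of all 19775 genes, and 0 passed the test. The neuroendocrine factor INSM1 was at -0.45 and the noradrenaline-synthesising enzyme DBH at -0.35 (limma, adjusted p = 0.37 and 0.60). DBH had 11.66 and 12.02 on the knockdown arrays, against 12.19 and 12.18 on the control arrays, and was lowest on knockdown replicate 1. The other probe set of INSM1 was at -0.030 and that of DBH at 0.037. Both read low, from 6.16 to 6.21 for INSM1 and from 6.39 to 6.49 for DBH. These values were under the median of all probe sets on every array. The part of these markers in the peptide and granule gene values was not tested. Schwann cell and melanocyte markers were above the line for 0 of 5 measured genes, and mesenchymal markers for 8 of 12.

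In sympathetic neurons NPY is packed with noradrenaline and constricts vessels, galanin (GAL) modulates release and growth, and VIP, made by a cholinergic subset, dilates vessels. ADCYAP1 encodes PACAP, a relative of VIP that shares receptors with it and drives catecholamine secretion. CARTPT encodes a peptide of feeding and reward circuits, TAC1 the tachykinins substance P and neurokinin A, SST the inhibitory hormone somatostatin, and PENK the opioid enkephalins. All are cut from larger precursors by proteases in the granule, and several of the genes, SST, VIP and PENK among them, are classical targets of cyclic AMP signalling through the transcription factor CREB.

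Promoters are shown for NPY, whose probe set was among the brightest on the arrays, for VIP, which differed most between the control arrays, and for SST and CARTPT, which hold the CREB site in full and were read under the background line defined further on. The sequences are from RefSeq (build GRCh38.p14) and run 5′ to 3′ from 250 bases before the start site through the first 50 transcribed bases. Capitals mark matches to the core of the cyclic AMP response element (letters TGACGT, either strand) and to the TATA box (letters TATAAA, either strand). Where matches on both strands overlap, they make 1 longer run of capitals.
NPY promoter, chr7:24283940-24284239, plus strand: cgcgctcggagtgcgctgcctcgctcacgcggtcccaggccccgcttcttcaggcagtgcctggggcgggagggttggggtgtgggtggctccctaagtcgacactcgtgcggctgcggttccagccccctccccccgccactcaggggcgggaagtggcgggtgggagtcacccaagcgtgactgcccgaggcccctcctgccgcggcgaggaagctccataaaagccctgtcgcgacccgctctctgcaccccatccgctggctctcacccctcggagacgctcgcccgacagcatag
VIP promoter, chr6:152750547-152750846, plus strand: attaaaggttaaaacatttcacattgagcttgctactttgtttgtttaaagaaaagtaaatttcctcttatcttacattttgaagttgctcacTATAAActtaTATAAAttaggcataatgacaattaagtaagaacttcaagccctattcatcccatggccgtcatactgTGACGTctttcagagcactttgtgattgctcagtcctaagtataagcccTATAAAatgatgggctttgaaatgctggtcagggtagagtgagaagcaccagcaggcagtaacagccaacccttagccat
CARTPT promoter, chr5:71719025-71719324, plus strand: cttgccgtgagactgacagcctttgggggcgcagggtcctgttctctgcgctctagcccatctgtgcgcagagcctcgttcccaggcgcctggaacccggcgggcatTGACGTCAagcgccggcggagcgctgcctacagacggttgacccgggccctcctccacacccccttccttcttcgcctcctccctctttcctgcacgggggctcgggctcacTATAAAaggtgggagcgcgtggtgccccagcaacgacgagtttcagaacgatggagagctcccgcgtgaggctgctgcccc
SST promoter, chr3:187670345-187670644, minus strand: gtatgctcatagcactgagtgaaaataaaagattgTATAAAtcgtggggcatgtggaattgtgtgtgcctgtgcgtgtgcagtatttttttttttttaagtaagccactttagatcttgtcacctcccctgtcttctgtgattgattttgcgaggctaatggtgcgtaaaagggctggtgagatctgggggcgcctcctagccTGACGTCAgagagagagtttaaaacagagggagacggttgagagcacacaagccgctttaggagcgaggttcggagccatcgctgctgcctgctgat
Promoters of 6 of the 8 genes were examined, as 7 entries, and those of GAL and PENK were not examined here. The response element core occurred in 3 of these 6 genes, VIP (79 bases before the start site), CARTPT (143 and, on the other strand, 141) and SST (47 and, on the other strand, 45). A match of this kind is present in 7.98% of the 35116 RefSeq promoters searched. NPY and TAC1 and both ADCYAP1 entries held no such letters. A TATA box stood 30 bases before the start site of VIP and 31 before that of CARTPT. The same letters also stood 157 and 147 bases before the start site of VIP and 215 before that of SST. They occur in 11.5% of all promoters. These matches describe the sequence only.

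The first question was which of the peptides SH-SY5Y cells express at baseline. NPY and GAL were above background on the control arrays. As no detection calls were used here, the background line was the 95th percentile of 73 probe sets of 41 genes typical of other tissues (such as liver, muscle, skin and testis), which lay at 8.02 and 8.08 on the control arrays. The line is a high one, because the brightest probe sets of that list were those of the keratin gene KRT10, at up to 10.66, and of PRSS2. TSPAN8 itself lay under it and yet fell, so a value under the line does not show that a gene is silent. Probe sets differ in affinity, and their values therefore do not rank the genes by transcript number.

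NPY, at probe set 206001_at, had values of 13.23 and 12.90 on the knockdown arrays, against 12.94 and 12.95 on the control arrays. On the control arrays this was at percentiles 99.5 and 99.4 of all probe sets, and it was the one member that also exceeded the brightest probe set of the background list. The knockdown mean was 13.07 ± 0.23 and the control mean 12.94 ± 0.0048 (SD, n = 2 each), and the groups overlapped because knockdown replicate 2 was the lowest of the 4 arrays. The log2 difference of 0.12 ± 0.097 (SE) did not pass the test (limma, adjusted p = 0.80), with a 95% confidence interval of -0.10 to 0.35, that is 0.93 to 1.27 times the control signal.

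Most of the NPY difference lay in 1 array. The knockdown arrays differed by 0.33 at this probe set, a gap wider than that of 99.3% of all probe sets, whereas the control arrays differed by 0.0068. Without knockdown replicate 2 the difference was 0.29 and passed (limma, adjusted p = 0.034), in a fit in which 1026 probe sets (1.88%) passed and in which the lone knockdown array is assumed to vary like the controls. Without knockdown replicate 1 it was -0.041 (adjusted p = 0.95). The array with the high NPY value was also the one with high mesenchymal markers: the 12 genes had a median of 0.32 above the control mean on knockdown replicate 1 and of 0.058 on knockdown replicate 2, against 0.023 and -0.023 on control replicates 1 and 2. Of these 12 genes 10 were higher in knockdown cells, beside 44.4% of all genes. The summed linear signal of the 12 was 22530 and 18235 on the knockdown arrays against 18950 and 18020 on the control arrays. That sum weighs the brightest gene most, which was VIM, at 13.61 and 13.36 against 13.44 and 13.41. The matrix gene DCN, at 10.06 and 9.19 against 9.17 and 9.09, had the same array apart, whereas PRRX1, a defining factor of the mesenchymal state, was under the background line at 6.24 and 6.30 against 6.13 and 6.21. DBH was lowest on this array, and so were INSM1, ELAVL4, PHOX2A, GATA2 and ISL1, whereas GATA3, STMN2, DDC and SLC18A1 were highest there. The noradrenergic markers as a set were not low on it. Relative to the control mean, the median of the 13 genes was 0.010 there, against -0.040 for the other knockdown array. The part of mesenchymal cells in the NPY value was not tested. In bulk RNA fewer cells of a type and less RNA per cell cannot be told apart.

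**Figure D1:**
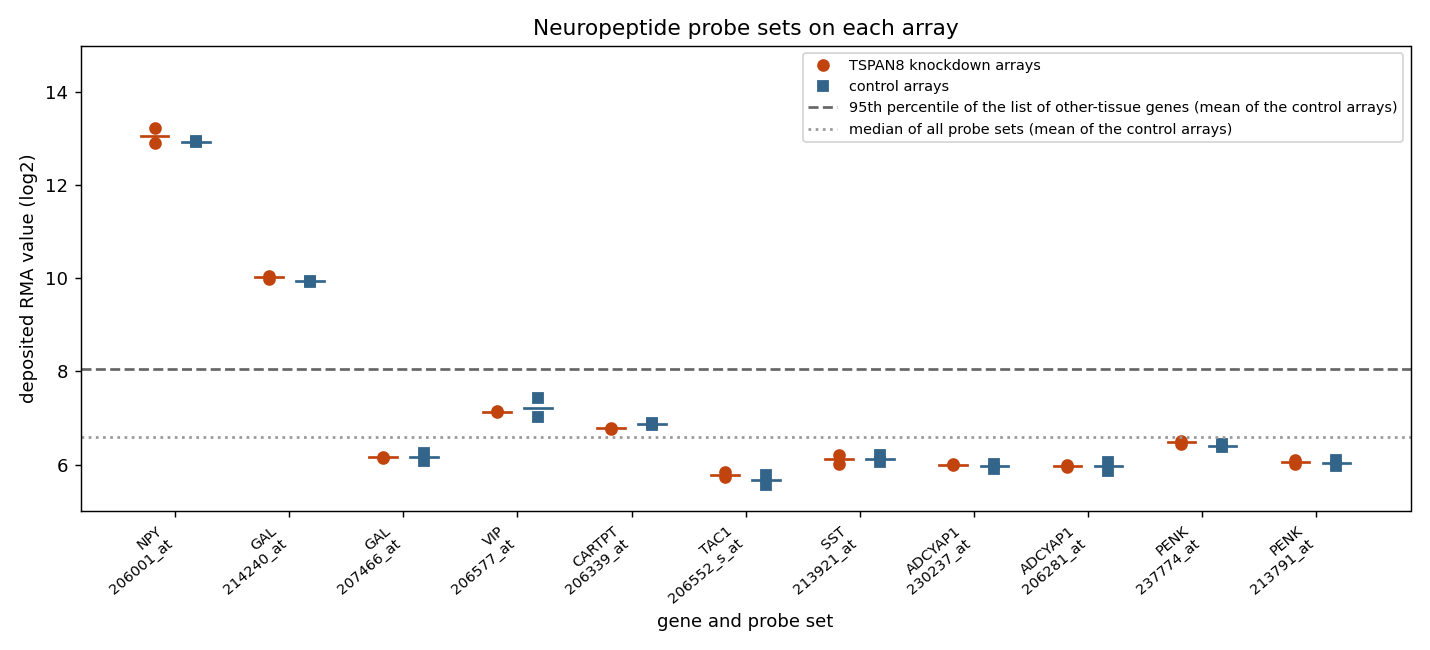
Deposited log2 value (vertical axis) of the 11 neuropeptide probe sets (horizontal axis) on the 2 knockdown arrays (circles) and the 2 control arrays (squares), with short lines at the group means. NPY and 1 GAL probe set stand above the dashed background line, and all other probe sets lie below it.

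The genes whose 4-array pattern was closest to that of NPY, after subtraction of each gene's own mean, were PDGFC, AKNAD1 and ID2B, out of 19774 searched. Their root mean square distances from NPY were 0.0071, 0.013 and 0.018 on the log2 scale. PDGFC, a platelet-derived growth factor, stood at 7.62 and 7.28 on the knockdown arrays, against 7.34 and 7.34 on the control arrays, so it too was high on knockdown replicate 1 alone. With 4 arrays and so many genes such likeness is a description of 1 high array, and no correlation is given.

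Galanin was read well by only 1 of its probe sets. At 214240_at GAL had 10.06 and 10.00 on the knockdown arrays, against 9.93 and 9.95 on the control arrays. Both knockdown arrays were above both control arrays, by a mean of 0.090 ± 0.053 (SE), which did not pass (limma, adjusted p = 0.71; interval -0.033 to 0.21). The other probe set, 207466_at, gave 6.14 and 6.16 against 6.08 and 6.26, at percentiles 25.3 and 35.1 of the control arrays, and a difference of -0.017 (adjusted p = 0.98). The first probe set places galanin above background in these cells, and the second, near the level of the other-tissue genes (median 6.32 and 6.30 on the control arrays), does not.

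VIP, CARTPT and the remaining peptides lay under the background line. VIP (206577_at) had 7.16 and 7.12 on the knockdown arrays, against 7.01 and 7.43 on the control arrays. Both knockdown arrays fell between the controls, whose gap of 0.42 was wider than that of 99.9% of all probe sets. The log2 difference was -0.085 ± 0.12 (SE; limma, adjusted p = 0.91), with an interval of -0.36 to 0.19, the widest among the 11 probe sets, and its sign turned with the control array left out: -0.30 without control replicate 1 and 0.12 without control replicate 2.

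CARTPT (206339_at) had 6.79 and 6.77 on the knockdown arrays, against 6.86 and 6.90 on the control arrays. The arrays of each group were close together and the groups did not overlap, and this gene had the smallest p of the members. The difference was -0.098 ± 0.052 (SE), with an interval of -0.22 to 0.021, and it did not pass (limma, adjusted p = 0.69). VIP and CARTPT were above the median of all probe sets on both control arrays (6.58 on each), and VIP but not CARTPT was above the line on both control arrays when KRT10 and PRSS2 were taken out of the background list, which lowered the line to 6.88 on each, an alternative chosen after the values were seen.

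The last 4 genes were read close to the median of the background list or below it. TAC1, measured by a probe set (206552_s_at) that may bind related transcripts, had 5.73 and 5.83 on the knockdown arrays, against 5.57 and 5.78 on the control arrays, which placed it at percentiles 1.52 and 8.88 of the controls. SST (213921_at), whose promoter above holds the full response element, had 6.21 and 6.02 on the knockdown arrays, against 6.06 and 6.20 on the control arrays. Its values spread as widely within each group as between them, with a difference of -0.0088 ± 0.079 (SE; limma, adjusted p = 1.00).

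ADCYAP1 and PENK gave the same picture at both of their probe sets. ADCYAP1 had 6.01 and 5.99 on the knockdown arrays, against 5.91 and 6.01 on the control arrays at 230237_at. At 206281_at it had 5.95 and 5.99 against 6.06 and 5.86. PENK had 6.44 and 6.51 on the knockdown arrays, against 6.43 and 6.37 on the control arrays at 237774_at, where the groups just failed to overlap. At 213791_at it had 6.01 and 6.11 against 5.97 and 6.10. The differences at these 4 probe sets ran from 0.014 to 0.074, none past the test (limma, adjusted p from 0.79 to 0.99), and that of TAC1 was 0.11 (adjusted p = 0.78).

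**Figure D2:**
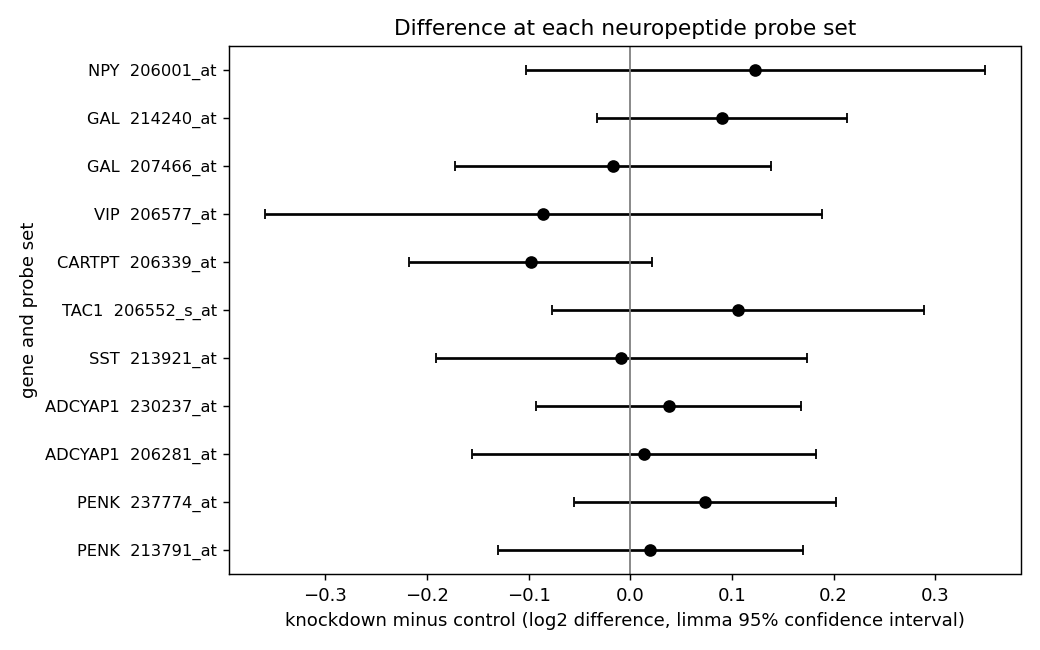
Log2 difference, knockdown minus control (horizontal axis), at each of the 11 neuropeptide probe sets (vertical axis), with limma's 95% confidence interval as bars. Every interval contains 0, and the widest are those of VIP and NPY.

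Across the peptides, then, 0 of 11 probe sets and 0 of 8 genes passed (limma with Benjamini-Hochberg adjustment over 54613 probe sets), where 0.00183% of all probe sets passed. At an unadjusted p under 0.05 there were also 0 of 11, against 7.83% of all probe sets. The groups' arrays did not overlap for 3 of the 11, GAL at 214240_at, PENK at 237774_at and CARTPT, against 37.5% of all probe sets. The gene median was 0.056, with 5 genes higher and 3 lower, beside a median of -0.0094 and 44.4% higher over all 19775 genes. That gene median was -0.0083 without knockdown replicate 1 and -0.0058 without control replicate 1. The confidence intervals of the 11 probe sets all lay within -0.36 to 0.35. Summarised log2 values understate the change of transcripts near background, so these bounds apply to the signal as measured.

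**Figure D3:**
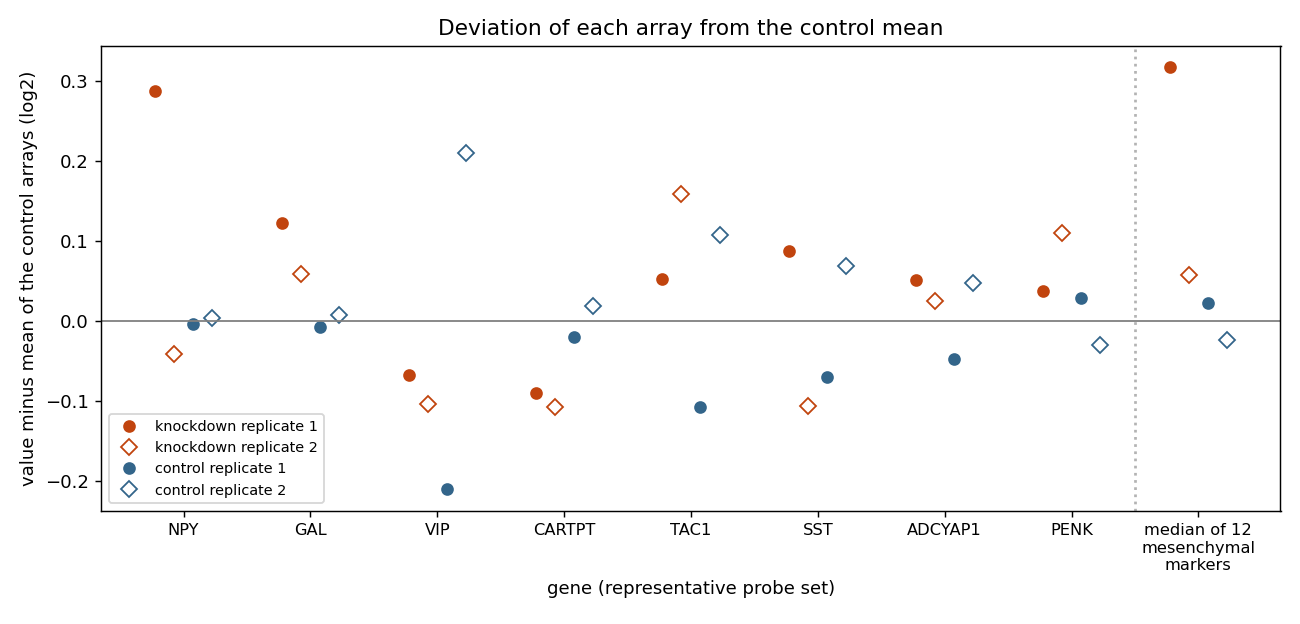
Deviation of each array from the mean of the control arrays (vertical axis, log2) for the representative probe set of the 8 genes and for the median of 12 mesenchymal markers (horizontal axis). Knockdown replicate 1 is high for NPY (0.29) and for the markers (0.32), and the control arrays are far apart for VIP.

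The receptors of these peptides were mostly under the background line. Of 20 measured receptor genes, 1 was above it, NPY2R, the presynaptic NPY receptor, with 8.71 and 8.42 on the knockdown arrays against 8.42 and 8.30 on the control arrays at 210729_at. Its difference of 0.20 ± 0.095 (SE) did not pass (limma, adjusted p = 0.65), and its other 2 probe sets lay between 5.99 and 6.19 on all arrays. As for NPY, knockdown replicate 1 was the high array. By p the receptors led with SSTR2 (-0.16), SSTR4 (0.17) and ADCYAP1R1, the PACAP receptor (-0.14), with adjusted p from 0.63 to 0.65 (limma). SSTR2 had all 3 probe sets below control, at -0.16, -0.11 and -0.086. Of the 20, 0 passed, SSTR2 alone had an unadjusted p under 0.05 (7.96% of all genes did), and the median was 0.045.

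Most measured genes that pack and process the peptides were above the background line. The precursor convertases PCSK1 and PCSK2 were not analysed here, so the values do not cover the cutting itself. Of 10 measured genes of granules and processing, 7 were above the line on both control arrays, among them CPE, which trims the cut peptides, PAM, which amidates peptides such as NPY and VIP, and SCG5, the helper of a precursor convertase. CPE differed by 0.070 and PAM by 0.11 (limma, adjusted p = 0.86 and 0.75). The granins CHGA and CHGB, which fill the granule, were the lowest: CHGB averaged 11.07 ± 0.10 on the knockdown arrays against 11.27 ± 0.072 on the control arrays (SD, n = 2 each), a difference of -0.20 ± 0.068 (SE; adjusted p = 0.61), and CHGA differed by -0.29 (adjusted p = 0.58). Another granin, SCG2, differed by 0.16 (adjusted p = 0.67). None of the 10 passed, and CHGA and CHGB alone had an unadjusted p under 0.05, that is 2 of 10, where 7.96% of all genes did.

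Other peptide precursors gave a wider view of the repertoire. Of 49 measured, 4 were above the line: NMU, the precursor of a peptide acting on smooth muscle and feeding, at 11.02 and 10.90 on the knockdown arrays against 10.92 and 10.91 on the control arrays, the bombesin-like NMB, the granin-like VGF and CALCB, a calcitonin gene-related peptide. Their differences were 0.046, 0.12, 0.070 and -0.019 (limma, adjusted p from 0.72 to 0.99). The 3 genes with the smallest p lay under the line: ADM, the vasodilator adrenomedullin (0.16), UTS2, the vasoconstrictor urotensin (-0.15), and NPPC, a natriuretic peptide (-0.13), with adjusted p from 0.61 to 0.63. NTS, the neurotensin precursor, had the largest difference in the list, 0.27 (adjusted p = 0.64), and is named after its value was seen. It had 7.10 and 6.72 on the knockdown arrays against 6.72 and 6.57 on the control arrays, so again knockdown replicate 1 stood apart. Of the 49, 0 passed, 2 were higher and 3 lower at an unadjusted p under 0.05 (10.2%, beside 7.96% of all genes), and the median was 0.020.

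Peptide-degrading enzymes and transcriptional regulators did not pass either. Of 7 measured enzymes 0 passed, with THOP1, an oligopeptidase that cleaves neuropeptides, at -0.16 and the aminopeptidase ANPEP at 0.12. The neurotensin-cleaving NLN was at 0.12 at its brightest probe set (limma, adjusted p from 0.61 to 0.73 for these genes). At an unadjusted p under 0.05 (limma), ANPEP was higher and THOP1 lower, 28.6% of the list beside 7.96% of all genes. The other probe sets of ANPEP were at 0.014 and 0.016. The brightest NLN probe set, 234762_x_at, is of a type that may bind related transcripts, and the other 5 disagreed in sign. Of those, 4 lay between -0.13 and -0.041 and read from 7.57 to 8.81. The remaining 1 lay at 0.12 but read low, from 6.16 to 6.31. Of 16 regulators on the CREB path and around it 0 passed and 12 were above the line, with a median of 0.0028. At their representative probe sets the coactivator EP300 was at -0.20, the CREB coactivator CRTC3 at -0.12, and REST, a repressor of neuronal genes in other cells, at 0.11 (limma, adjusted p from 0.60 to 0.69). The other probe set of EP300 was at -0.021 and that of CRTC3 at 0.12, and the other 2 of REST were at 0.071 and -0.11. The CRTC3 and REST probe sets of opposite sign lay under the background line, unlike the representative ones. They read from 6.73 to 6.89 for CRTC3 and from 6.08 to 6.24 for REST.

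**Figure D4:**
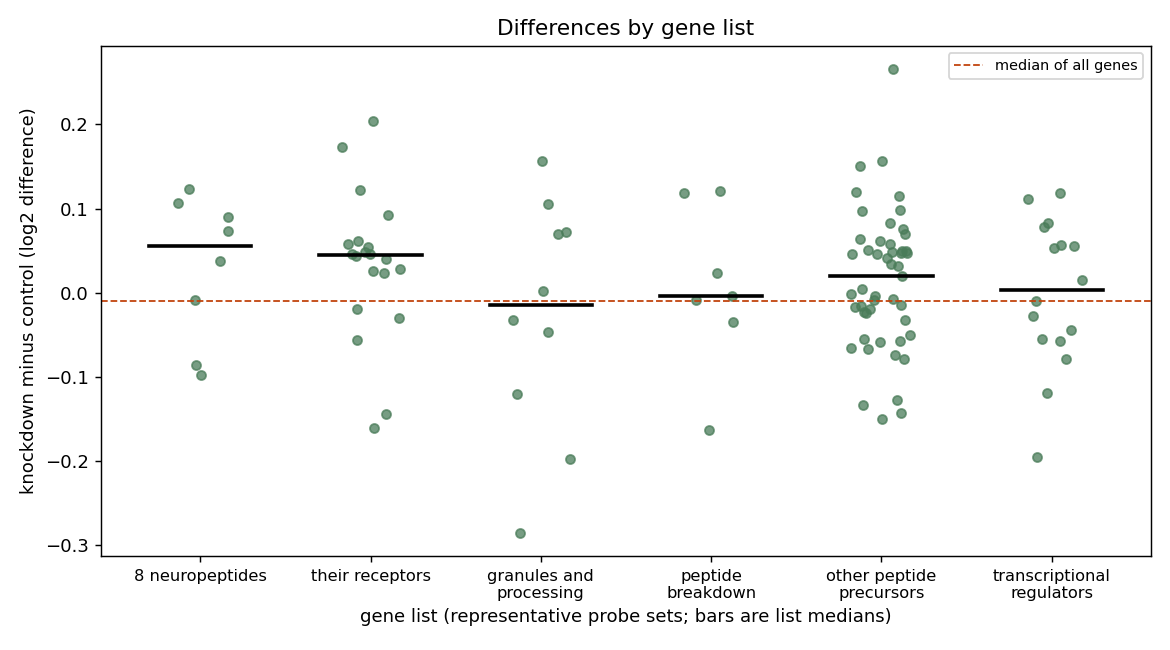
Log2 difference, knockdown minus control (vertical axis), of each measured gene at its representative probe set in 6 lists (horizontal axis), with bars at the list medians and a dashed line at the median of all genes (-0.0094). The list medians lie between -0.015 and 0.056, and no gene in these lists passed the test.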

How the data were processed

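Expression was measured on 2 TSPAN8 knockdown and 2 transfection control arrays. The authors deposited log2 values, 1 per probe set and array. The submitters' processing notes give RMA and R 3.0.1 but no settings. No scanner files, detection calls or scan dates were used here, so no batch could be examined and depth has no counterpart. The number of arrays limits the precision. The file holds 54675 probe sets, of which 62 AFFX controls were left out.

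Probe sets were named through the platform annotation (41091 with 1 gene, 1801 with several and not named, 11721 not listed), and 41037 matched a RefSeq gene identifier. For each gene the probe set brightest on average served as its representative. The groups were compared with limma 3.58.1 (lmFit, eBayes, R 4.3.3) over all probe sets, without covariates, two-sided, with Benjamini-Hochberg adjustment and a threshold of 0.05, and the fit was tested on simulated data. An exact permutation test of 2 against 2 arrays cannot go below 0.333. Lists are described by counts and medians only. The members and lists were chosen with earlier results of these data known. Besides all members, the text names TSPAN8, the 3 genes with the smallest p among receptors, processing genes, degrading enzymes, other precursors and regulators, the receptors and other precursors above the line, and the 3 genes closest in pattern to the member above the line with the widest range. Cell markers, CPE, PAM, SCG5, NTS and CALCA fall outside that rule and were chosen after their values were seen. Listed genes without a single-gene probe set, such as PCSK1, PCSK2 and NPY4R, were not analysed here. The alternatives were filters, normalization, variance model, array weights, replicate block, probe set choice and leaving out arrays. Figures were drawn with matplotlib 3.10.9 in Python 3.11.15.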

Additional observations from a re-analysis of the deposited data

How the results depend on the processing

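No neuropeptide probe set passed under 9 alternatives run besides leaving out an array. A looser unadjusted threshold of 0.05, applied to the main fit, was 1 of these. After a second quantile normalization 1 of 11 member probe sets had an unadjusted p under 0.05 (limma). TSPAN8 kept its change of -1.27 with the replicate number as a block but lost its call (adjusted p = 0.16), in a fit with fewer residual degrees of freedom, and the block changed no call among the peptides. Nothing in the labels pairs the numbers, and the deviations of equal numbers correlated at 0.051 across probe sets, from 2 pairs. With 1 array left out, the count of called probe sets ran from 0 to 1 and that of called genes from 0 to 1, the 1 being NPY without knockdown replicate 2. The gene median ran from -0.0083 without knockdown replicate 1 to 0.091 without control replicate 2, and TSPAN8 from -1.32 to -1.22. NPY ran from -0.041 to 0.29, VIP from -0.30 to 0.12, SST from -0.11 to 0.088, TAC1 from -0.0017 to 0.21 and ADCYAP1 from -0.0099 to 0.085, all turning sign. GAL turned to -0.017 with its probe set of widest range, a setting in which the gene median was 0.0025. That median was also 0.0025 over the 4 genes with a mean above the median of all means. It was 0.11 over the 2 genes left by the filter at the background line. The number of genes above background was 2, against 4 with the array median as the line (VIP and CARTPT added), 1 with the brightest probe set of the background list (NPY alone) and 3 without KRT10 and PRSS2 in that list. Why these values shifted, that is the cause, was not tested. The filter at the background line left 2 member probe sets to test and removed TSPAN8, so that alternative gave it no value. Leaving out _s_at and _x_at probe sets removed TAC1.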

Other observations

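CALCB, a gene of the calcitonin gene-related peptides, differed more between arrays of a group than between groups. It had 8.74 and 8.96 on knockdown replicates 1 and 2, against 8.67 and 9.07 on control replicates 1 and 2. The control gap of 0.40 was wider than that of 99.9% of all probe sets, and the knockdown gap of 0.22 wider than that of 96.2%. CALCA, its relative, had a wide gap in both groups at 1 of 4 probe sets, 217561_at. There it had 6.40 and 6.77 on knockdown replicates 1 and 2, against 6.23 and 6.95 on control replicates 1 and 2. At the other 3 probe sets of CALCA replicate 1 minus replicate 2 was -0.014, -0.38 and -0.030 in knockdown cells, against 0.021, 0.020 and -0.21 in control cells. For CALCB and for 217561_at the array numbered 2 was the higher one in both groups, as for VIP among the controls but not among the knockdown arrays (7.16 and 7.12). No label says that the numbers mark a shared day or culture. These genes were picked out after their values were seen.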
